A study of Mus musculus with 7 samples.

Results

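50 genes of clathrin-mediated endocytosis and of the endosomal sorting that follows it were followed in ribosome-bound RNA of Purkinje cells. They were listed by name (clathrin and its adaptor AP2, cargo adaptors, BAR-domain proteins, dynamins, EHD proteins, and the retromer and commander sorting complexes) and matched by symbol to the gene identifiers of the count tables. All 50 of the 50 were found among 55401 counted genes, and all 50 had enough counts to be tested, as had 17621 genes in all. Libraries came from 4 homozygous *nm3888*-/- mice and 3 mice wild type at this locus, 1 mouse per library, with cerebella taken at 3 weeks of age. The methods list as many mice but fewer mutant libraries than were deposited, and every deposited library was used. All 7 mice carried Rpl22fl/+ and PCP2-Cre, so that Cre, under a Purkinje cell promoter, switched the ribosomal protein RPL22 to an HA-tagged copy, and an anti-HA antibody recovered the tagged ribosomes from lysate of the whole cerebellum. *nm3888* is a spontaneous mutation of *Rreb1* that arose on the NOD/ShiLtJ background, and was later also kept on C57BL/6J, while the tagged *Rpl22* and Cre alleles came from stocks of C57BL/6 background, so any strain difference linked to the locus cannot be told apart from genotype. By the library names, mutants 1 and 2 and wild types 1 and 2 form a first series (all female). Mutants 3 and 4 (male) and wild type 3 (female) form a second series, in which sex and genotype cannot be told apart.

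In clathrin-mediated endocytosis, FCHo-type proteins and AP2 gather cargo at the plasma membrane, clathrin polymerizes into a coat, BAR-domain proteins bend the neck of the pit, dynamin cuts it, and synaptojanin with the chaperone cofactor auxilin strips the coat. Endosomes then sort the cargo, to lysosomes through ESCRT complexes or back to the cell surface and Golgi through retromer, commander and EHD proteins. At synapses this route recycles vesicle membrane after release. Several of its proteins exist as a neuron-enriched paralog and a ubiquitous one, and these pairs were compared here.

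The start-site windows of a strongly changed neuron-enriched gene, a second one that holds a searched motif, and the ubiquitous paralogs of both are shown because the comparison of paralogs below turns on these genes. The sequences are RefSeq promoters of the build GRCm38.p6 (the mm10 genome), 250 bases before to 50 after an annotated start. *Pacsin1* (chr17:27684989-27685288 on the plus strand, at a start inside the annotated gene) holds 33 CG dinucleotides, *Pacsin2* (chr15:83464557-83464856 on the minus strand, 1 of its 3 windows) 27, *Snap91* (chr9:86880659-86880958 on the minus strand) 35 and *Picalm* (chr7:90129963-90130262 on the plus strand) 44. Capitals mark the E-box CAGATG on either strand (written CATCTG on the other), a site that NEUROD1-type factors bind.
Pacsin1: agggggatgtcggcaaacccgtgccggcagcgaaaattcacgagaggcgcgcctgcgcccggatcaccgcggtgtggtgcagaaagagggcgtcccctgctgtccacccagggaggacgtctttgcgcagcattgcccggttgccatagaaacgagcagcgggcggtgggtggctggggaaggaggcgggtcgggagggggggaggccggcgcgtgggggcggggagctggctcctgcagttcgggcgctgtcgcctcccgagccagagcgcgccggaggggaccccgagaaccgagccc
Pacsin2: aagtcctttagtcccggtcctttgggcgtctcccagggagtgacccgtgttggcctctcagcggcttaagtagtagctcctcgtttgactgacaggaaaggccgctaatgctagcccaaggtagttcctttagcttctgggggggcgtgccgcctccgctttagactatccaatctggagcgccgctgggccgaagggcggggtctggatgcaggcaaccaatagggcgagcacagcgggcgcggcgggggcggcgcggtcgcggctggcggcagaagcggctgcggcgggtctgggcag
Snap91: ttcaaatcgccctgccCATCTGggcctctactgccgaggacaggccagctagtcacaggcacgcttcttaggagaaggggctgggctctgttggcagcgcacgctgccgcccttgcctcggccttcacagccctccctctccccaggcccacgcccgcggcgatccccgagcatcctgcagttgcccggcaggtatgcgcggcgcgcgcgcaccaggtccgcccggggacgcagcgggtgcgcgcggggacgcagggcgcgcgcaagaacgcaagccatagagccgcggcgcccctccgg
Picalm: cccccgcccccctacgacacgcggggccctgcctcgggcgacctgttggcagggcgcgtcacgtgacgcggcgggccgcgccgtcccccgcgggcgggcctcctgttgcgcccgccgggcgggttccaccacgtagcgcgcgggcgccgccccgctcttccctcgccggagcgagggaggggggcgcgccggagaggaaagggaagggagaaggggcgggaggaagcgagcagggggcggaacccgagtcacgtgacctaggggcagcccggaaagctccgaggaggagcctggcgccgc
Of the 4 windows only that of *Snap91* holds the motif. A window was found for 43 of the 50 members. The motif was in at least 1 window of 1 of 9 members that changed and of 5 of 34 that did not pass the test, and in 17.2% of all 32851 windows of this length. The median number of CG dinucleotides (taking each gene's richest window) was 25 in both sets of members. A match is a description of the window and not of binding.

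Total counts ranged from 18023017 to 107937386 per library. *Rreb1* itself had 20.2, 19.1, 23.7 and 10.8 CPM in mutants 1, 2, 3 and 4, against 17.7, 17.4 and 14.4 CPM in wild types 1, 2 and 3 (log2 fold change 0.20, SE 0.23, adjusted p = 0.64 by edgeR). The genotypes overlapped. These counts pool every transcript of the gene. The paper describes the transcript lost in mutants as the predominant form in brain, yet the pooled counts showed no fall. They therefore do not bear out the mutant label, which was used as given. Why the pooled counts did not fall was not tested. By the paths in the file headers, the alignments that were counted came from Bowtie2 in the first series and from STAR in the second. Processed pseudogenes held 8.73 to 10.1% of a library's counts in the earlier series, against 0.135 to 0.189% in the later one. The fit therefore has a term for series. Means and SDs of a genotype given below pool both series, so they also hold the difference between the series. The 14 Purkinje cell markers summed to 41049 to 60309 CPM in mutants and 44585 to 53941 CPM in wild types and exceeded every other marker list in each library. Of these 14, 0 passed the test by edgeR, 0 by DESeq2 and 2 had an unadjusted p under 0.05. Markers of other cerebellar cells were present, and most had a positive log2 fold change. For comparison, 2.58% of all tested genes were higher by edgeR and 791 genes were higher by DESeq2. No share of all genes was taken at an unadjusted p. The 10 granule cell markers summed to 627 to 1147 CPM in mutants and 448 to 559 CPM in wild types, and 1 was higher by edgeR, 1 by DESeq2 and 4 at an unadjusted p under 0.05. The 10 oligodendrocyte markers summed to 686 to 1224 CPM in mutants and 485 to 725 CPM in wild types, and 2 were higher by edgeR, 3 by DESeq2 and 7 at an unadjusted p under 0.05. The 10 markers of Bergmann glia and astrocytes summed to 420.1 to 667 CPM in mutants and 459.8 to 533 CPM in wild types, with 1 higher and 1 lower by edgeR, 2 higher and 1 lower by DESeq2, and 3 higher and 1 lower at an unadjusted p under 0.05. For interneurons (7 markers) the sums were 169 to 210.4 CPM in mutants and 159 to 260.4 CPM in wild types, for endothelial and mural cells (10) 52 to 75.6 CPM in mutants and 33.5 to 52.9 CPM in wild types, for blood (5) 106 to 313 CPM in mutants and 87.2 to 112 CPM in wild types and for the 7 of 10 tested microglial markers 5.66 to 12.5 CPM in mutants and 3.52 to 6.70 CPM in wild types. In these 4 lists 0 genes passed by edgeR, while 2 blood, 2 endothelial and mural, 1 microglial and 0 interneuron genes were higher by DESeq2, and 3, 3, 4 and 4 had an unadjusted p under 0.05. No marker outside the microglial list was at 0 in any library, and 1 microglial marker was. The part of other cells in the results below was not tested, and fewer cells of a type cannot be told apart from less RNA per cell.

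Of the 50 members, 9 were lower and 1 was higher in *nm3888*-/- than in wild-type Purkinje cells. The other 40 did not pass. A gene was called where the quasi-likelihood test of edgeR, with a term for library series, gave an adjusted p below 0.05 (Benjamini-Hochberg, over all 17621 tested genes). Levels are CPM, counts scaled to a common library size after TMM normalization, and fold changes are log2 of mutant over wild type. The 9 lower genes are 18% of the members, where 5.95% of all tested genes were lower, and the 1 higher gene is 2%, where 2.58% of all were higher and 8.54% changed in either direction. The members were chosen with earlier results of these data known, so no test of these shares is given. *Pacsin1*, *Ehd3*, *Fcho1*, *Snap91*, *Amph*, *Dnm1*, *Necap1*, *Sgip1* and *Vps29* fell, and *Vps35l* rose. Both distributions were centred near 0, with a median log2 fold change of −0.08 for the members and 0.027 for all tested genes. All 4 mutants lay below all 3 wild types in 7 members and above them in 2, where this held for 8.92% and 5.16% of all genes. Within each series taken alone, mutants lay below wild types in both series in 15 members and above in 7, against 16.6% and 14% of all genes. With the replicate number of the labels as a block in place of the series, 3 members were lower (*Pacsin1*, *Ehd3* and *Fcho1*) and *Vps35l* was higher. The adjusted p of the other 6 was then 0.07 (*Snap91*), 0.0759 (*Amph*), 0.0876 (*Vps29*), 0.118 (*Necap1*), 0.131 (*Sgip1*) and 0.156 (*Dnm1*), by edgeR. In that fit mutant 4 was the only library with its number, so it added nothing to the genotype difference. *Pacsin1* was the 1 lower member with no series term, with sex in place of the series, and in the second series alone, and in none of these 3 was a member higher. The lower count was 2 to 7 when 1 mouse was left out in turn, with 3, 3 and 4 without wild types 1, 2 and 3 and 4 and 2 without mutants 1 and 2. Without wild type 3 the second series held no wild type, so its mutants added nothing to the genotype difference. That run, here and below, thus rests on the first series. No change of sign was seen in the 10 genes under the 17 other settings.

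**Figure D1:**
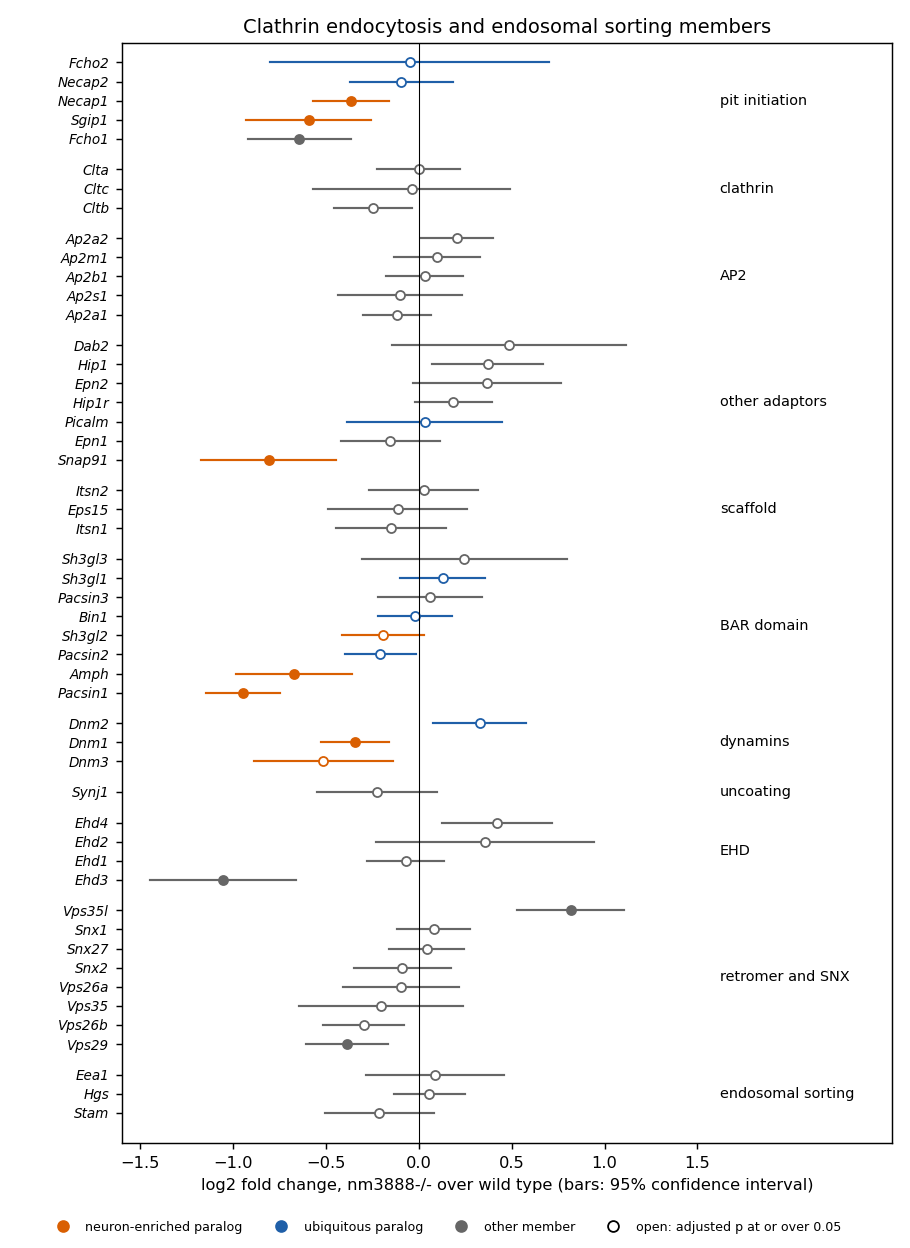
Log2 fold change of the 50 members (*nm3888*-/- over wild type, x axis) by role, with 95% confidence intervals from the edgeR fit. Filled points passed the test (9 below 0 and 1 above), neuron-enriched paralogs are orange, ubiquitous ones blue and other members grey. 6 of the 8 orange points and none of the 7 blue points are filled.

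Among the 5 genes that start a clathrin-coated pit, *Fcho1*, *Sgip1* and *Necap1* fell, and *Fcho2* and *Necap2* did not pass the test. *Fcho1*, on chromosome 8 from 71708387 to 71725716 (mm10, as all gene coordinates here), encodes a membrane-bending protein of nascent pits. It had 5.34, 5.19, 12.5 and 15.5 CPM in mutants 1, 2, 3 and 4, against 7.90, 8.07 and 22.6 CPM in wild types 1, 2 and 3. It was low in this RNA and higher in the second series, and both mutants of each series lay below its wild types. *Fcho1* passed the edgeR test with a log2 change of −0.64 (SE 0.12) and an adjusted p of 0.0138, with −0.60 (SE 0.17) in the first series and −0.69 (SE 0.24) in the second. The adjusted p was 0.0572, 0.14 and 0.0538 without wild type 2, wild type 3 and mutant 2, each left out in turn.

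*Sgip1*, on chromosome 4 from 102741297 to 102973628, encodes a neuronal relative of the FCHo proteins that binds endophilin. It had 63.6, 72.2, 102 and 73.7 CPM in mutants 1, 2, 3 and 4, against 123, 108 and 110.0 CPM in wild types 1, 2 and 3. All mutants lay below all wild types, with mutant 3 closest to them. *Sgip1* passed the edgeR test with a log2 change of −0.59 (SE 0.15) and an adjusted p of 0.0418, with −0.77 (SE 0.13) in the first series and −0.32 (SE 0.23) in the second. By edgeR, the adjusted p was 0.0574 to 0.132 with any 1 mouse left out other than mutant 3. *Necap1*, on chromosome 6 from 122874474 to 122888941, encodes an AP2-binding coat protein that is abundant in brain. It had 204, 232, 201 and 219 CPM in mutants 1, 2, 3 and 4, against 277, 279 and 274 CPM in wild types 1, 2 and 3. The wild types were nearly equal across both series, and every mutant lay below them. *Necap1* passed the edgeR test with a log2 change of −0.37 (SE 0.089) and an adjusted p of 0.039, with −0.35 (SE 0.12) in the first series and −0.39 (SE 0.21) in the second. By edgeR, the adjusted p was 0.0559 to 0.213 with any 1 mouse left out. The ubiquitous *Necap2* had 8.22 ± 1 CPM in mutant and 8.50 ± 1.17 CPM in wild-type Purkinje cells (SD, n = 4 and n = 3, as below). Its interval for the log2 fold change was −0.37 to 0.19, which just takes in the change of *Necap1*. *Fcho2* had 3.53 ± 1.25 CPM in mutant and 3.60 ± 1.08 CPM in wild-type Purkinje cells. Its interval was −0.80 to 0.70, too wide to exclude a change of the size of *Fcho1* or *Sgip1*.

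No gene of the coat itself passed the test. Of 3 clathrin genes and 5 AP2 subunit genes, 0 passed by edgeR, 0 passed by DESeq2, and 2 (*Cltb* and *Ap2a2*) had an unadjusted p under 0.05. The clathrin heavy chain gene *Cltc* had 342 ± 157 CPM in mutant and 309 ± 53 CPM in wild-type Purkinje cells (log2 fold change −0.039, SE 0.23), and its mutants spread from 174 CPM in mutant 1 to 552 CPM in mutant 3. The light chain genes were tighter, with a 95% interval of −0.23 to 0.22 for *Clta* and −0.45 to −0.038 for *Cltb* (log2 fold change −0.25, adjusted p = 0.143 from the edgeR test). *Ap2b1*, the beta subunit gene and the AP2 gene with the highest CPM per kilobase, had 1038 ± 59 CPM in mutant and 1012 ± 48.2 CPM in wild-type Purkinje cells and an interval of −0.18 to 0.24. The alpha subunit genes had log2 fold changes of −0.12, SE 0.081 (*Ap2a1*) and 0.20, SE 0.084 (*Ap2a2*), the mu subunit gene *Ap2m1* 0.099, SE 0.10, and the sigma subunit gene *Ap2s1* −0.10, SE 0.15. Each of the AP2 intervals lay within −0.44 and 0.40 on the log2 scale.

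Several AP2 genes share sequence with processed pseudogenes, intronless copies elsewhere in the genome, and the copies took up counts mostly in the first series. Copies were counted where a pseudogene transcript matched a member transcript over at least 200 bases at 90% identity or more, which held for 8 copies of 6 members. The 3 copies of *Ap2m1* held 240.4 and 269.5% of the counts of the gene itself in mutants 1 and 2 and 267 and 248% in wild types 1 and 2. In the second series they held 5.92 and 5.71% in mutants 3 and 4 and 4.89% in wild type 3. More counts of the first series thus lay on the copies than on *Ap2m1*, in both genotypes. *Ap2a2*, *Ap2b1*, *Snx2*, *Stam* and *Sh3gl3* had 1 such copy each. In the first series it held at most 73.8% of the counts of *Snx2* and 100.0% of those of the little expressed *Sh3gl3*. None of the 10 members that changed had a copy. With the copies' counts added to their gene, an alternative chosen after the data were seen, the same 9 members were lower and *Vps35l* higher, and *Ap2m1* had a log2 fold change of 0.098 (SE 0.093).

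**Figure D2:**
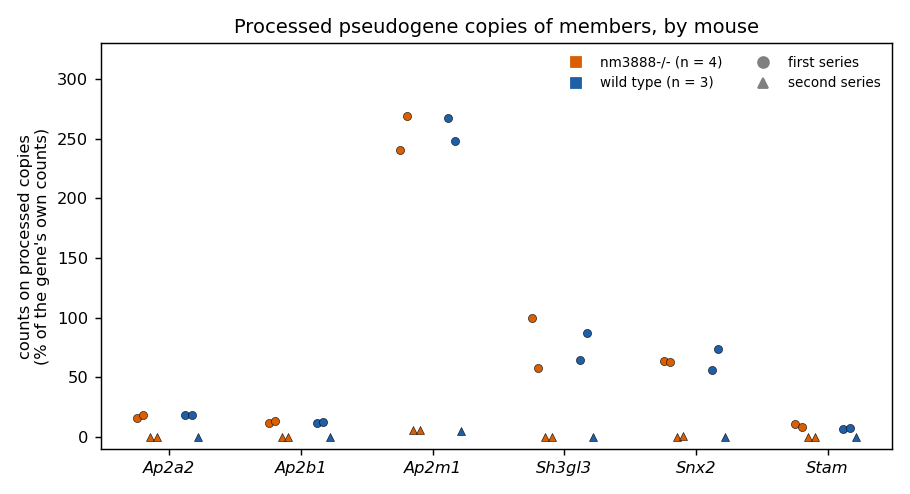
Counts on processed pseudogene copies as a percentage of the member's own counts (y axis) for the 6 members with copies, 1 point per mouse, orange for *nm3888*-/-, blue for wild type, circles for the first series and triangles for the second. The circles of *Ap2m1* lie between 240.4 and 269.5%, and no triangle lies above 5.92%.

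Of the 7 other adaptors, *Snap91* fell and 6 did not pass. *Snap91*, on chromosome 9 from 86765923 to 86880654, encodes AP180, the neuron-specific protein that assembles clathrin at synaptic membranes. It had 74.4, 96.6, 171 and 131 CPM in mutants 1, 2, 3 and 4, against 187, 153 and 218 CPM in wild types 1, 2 and 3. Mutant 3 exceeded wild type 2, but within each series both mutants lay below the wild types. *Snap91* passed the edgeR test with a log2 change of −0.81 (SE 0.16) and an adjusted p of 0.0164, with −0.99 (SE 0.17) in the first series and −0.52 (SE 0.22) in the second. The adjusted p was 0.0525 without wild type 1 and 0.0565 without mutant 2. Its ubiquitous relative *Picalm* (CALM) had 123 ± 31.3 CPM in mutant and 116 ± 8.01 CPM in wild-type Purkinje cells, with an interval of −0.38 to 0.45. *Hip1* and *Hip1r*, which link coats to actin, had log2 fold changes of 0.37, SE 0.13 and 0.19, SE 0.091, and all mutants lay above all wild types for *Hip1* but not for *Hip1r*. The epsin genes *Epn1* and *Epn2*, which bind ubiquitinated cargo, had log2 fold changes of −0.15, SE 0.12 and 0.37, SE 0.18. The scaffold genes *Eps15*, *Itsn1* and *Itsn2*, which hold adaptors together, had log2 fold changes between −0.15 and 0.026, with 59.6 ± 15.6 CPM in mutant and 62.2 ± 5.74 CPM in wild-type Purkinje cells for *Itsn1* and 24.9 ± 3 CPM in mutant and 24.9 ± 2.61 CPM in wild-type Purkinje cells for *Itsn2*. None of the genes beside *Snap91* in this paragraph passed.

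2 members lie low in these libraries and are known from other cells, *Dab2*, an LDL receptor adaptor of endothelial and myeloid cells, and *Ehd2*, a caveolar neck protein of endothelial, muscle and fat cells. *Dab2* had 3.01 ± 0.939 CPM in mutant and 2.16 ± 0.388 CPM in wild-type libraries (log2 fold change 0.48, SE 0.28, adjusted p = 0.335, edgeR). *Ehd2* had 1.79 ± 0.224 CPM in mutant and 1.50 ± 0.457 CPM in wild-type libraries (0.36, SE 0.26, adjusted p = 0.45, edgeR). Neither passed the test. The summed endothelial and mural markers given above overlapped between genotypes, 52 to 75.6 CPM in mutants and 33.5 to 52.9 CPM in wild types, and their part in these 2 values was not tested.

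Among 8 genes of membrane-bending BAR-domain proteins, the neuronal *Pacsin1* and *Amph* fell and 6 did not pass the test. *Pacsin1*, on chromosome 17 from 27655509 to 27711482, encodes syndapin I, an F-BAR protein that binds dynamin and synaptojanin at synapses. It had 218, 192, 221 and 216 CPM in mutants 1, 2, 3 and 4, against 403, 404 and 407 CPM in wild types 1, 2 and 3. It had the smallest adjusted p of the members, with the wild types almost equal in both series and the mutants at about the same level in both. *Pacsin1* passed the edgeR test with a log2 change of −0.95 (SE 0.087) and an adjusted p of 0.000367, with −0.98 (SE 0.12) in the first series and −0.89 (SE 0.21) in the second. It passed in each of the 17 other settings, with an adjusted p of at most 0.0301 (edgeR with sex in place of the series).

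*Amph*, on chromosome 13 from 18948205 to 19150921, encodes amphiphysin, which recruits dynamin to the pit neck. The paper maps the *nm3888* mutation to the same chromosome, and the part of a linked strain difference was not tested. *Amph* had 28.7, 32.3, 56.1 and 42.5 CPM in mutants 1, 2, 3 and 4, against 53.9, 55.7 and 65.9 CPM in wild types 1, 2 and 3. Mutant 3 exceeded both wild types of the first series, but the mutants of each series lay below its own wild types. *Amph* passed the edgeR test with a log2 change of −0.67 (SE 0.14) and an adjusted p of 0.0186, with −0.84 (SE 0.12) in the first series and −0.41 (SE 0.23) in the second. The adjusted p was 0.0659, 0.0743, 0.0544 and 0.0743 without wild type 1, wild type 2, mutant 1 and mutant 2. The endophilin gene *Sh3gl2* had 667 ± 56.1 CPM in mutant and 765 ± 13.1 CPM in wild-type Purkinje cells, with all mutants below all wild types but −0.20, SE 0.097, adjusted p = 0.266 on the log2 scale by edgeR. Its ubiquitous relative *Sh3gl1* had 24.4 ± 2.38 CPM in mutant and 21.7 ± 4.77 CPM in wild-type Purkinje cells (log2 fold change 0.13, SE 0.10), and *Sh3gl3*, barely detected, had 1.94 ± 1.16 CPM in mutant and 1.35 ± 0.597 CPM in wild-type Purkinje cells (0.24, SE 0.24). These 3 genes did not pass the test. The ubiquitous syndapin gene *Pacsin2* had 160.0 ± 5.83 CPM in mutant and 185 ± 5.70 CPM in wild-type Purkinje cells, again with every mutant below every wild type, but a smaller log2 fold change (−0.21, SE 0.083, adjusted p = 0.173 by edgeR). *Bin1*, the ubiquitous amphiphysin gene, had 92.1 ± 38.2 CPM in mutant and 82.2 ± 38.1 CPM in wild-type Purkinje cells (−0.022, SE 0.087), and *Pacsin3*, a syndapin known from muscle, had 0.058, SE 0.12.

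**Figure D3:**
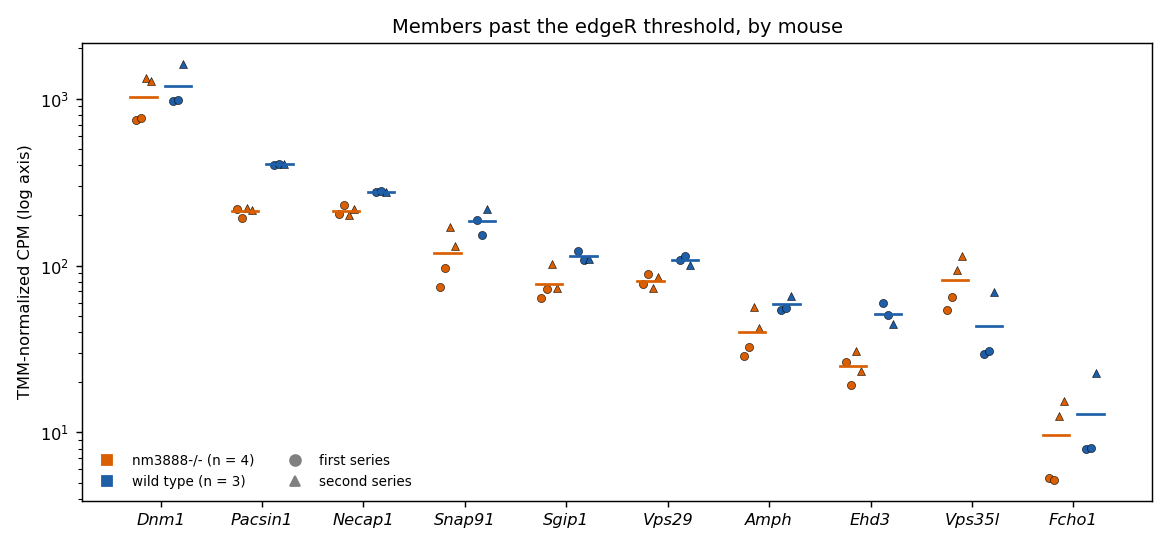
TMM-normalized CPM (log axis) of the 10 members that passed the test, in each mouse, with *nm3888*-/- in orange left of wild type in blue, circles for the first series, triangles for the second, and bars at the mean of each genotype. *Pacsin1*, *Necap1*, *Sgip1*, *Vps29* and *Ehd3* separate the genotypes across both series, and the other 5 do so within each series.

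Of the 3 dynamins, the GTPases that cut the neck of the pit, *Dnm1* fell. *Dnm1*, on chromosome 2 from 32308471 to 32353338, is the neuronal dynamin and had 745, 768, 1325 and 1274 CPM in mutants 1, 2, 3 and 4, against 970.2, 981 and 1610.2 CPM in wild types 1, 2 and 3. The second series was higher throughout, and within each series the mutants lay below the wild types. *Dnm1* passed the edgeR test with a log2 change of −0.34 (SE 0.081) and an adjusted p of 0.0349, with −0.37 (SE 0.11) in the first series and −0.31 (SE 0.20) in the second. By edgeR, the adjusted p was 0.0738 to 0.166 with any 1 mouse left out other than mutant 3. *Dnm3*, also enriched in neurons, had 201, 318, 232 and 189 CPM in mutants 1, 2, 3 and 4, against 422, 364 and 275 CPM in wild types 1, 2 and 3. Within each series its mutants lay below the wild types, and it did not pass by edgeR (−0.51, SE 0.16, adjusted p = 0.0963). It passed with DESeq2 (adjusted p = 0.0431) and with edgeR without a filter on low counts (0.0168). The ubiquitous *Dnm2* had 15.8 ± 4.21 CPM in mutant and 11.6 ± 2.83 CPM in wild-type Purkinje cells and a log2 fold change in the other direction (0.33, SE 0.11, adjusted p = 0.11 by edgeR). *Synj1*, the phosphatase gene that starts uncoating, had 139.8 ± 26.1 CPM in mutant and 166 ± 10.3 CPM in wild-type Purkinje cells (−0.23, SE 0.14, adjusted p = 0.383 by edgeR).

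Of the 4 EHD genes, ATPases that shape recycling endosomes, *Ehd3* fell and the others did not pass. *Ehd3*, on chromosome 17 from 73804134 to 73832094, is abundant in brain and had 26.2, 19.3, 30.6 and 23.3 CPM in mutants 1, 2, 3 and 4, against 59.4, 50.8 and 44.5 CPM in wild types 1, 2 and 3. The mutants had a mean of 24.9 ± 4.76 CPM, below the wild-type mean of 51.5 ± 7.48 CPM, with no overlap. *Ehd3* passed the edgeR test with a log2 change of −1.06 (SE 0.17) and an adjusted p of 0.00715, with −1.28 (SE 0.18) in the first series and −0.72 (SE 0.23) in the second, and it passed without each mouse in turn (adjusted p = 0.00526 to 0.0302 by edgeR). *Ehd1*, the EHD gene with the highest CPM per kilobase, had 72.6 ± 6.91 CPM in mutant and 77.5 ± 4.83 CPM in wild-type Purkinje cells, with an interval of −0.28 to 0.13. *Ehd4* had 20.6 ± 5.58 CPM in mutant and 15.9 ± 1.77 CPM in wild-type Purkinje cells, and within each series its mutants lay above the wild types (0.42, SE 0.13, adjusted p = 0.087 by edgeR).

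Among the 8 retromer, commander and sorting nexin genes, *Vps35l* rose and *Vps29* fell. *Vps35l*, on chromosome 7 from 118740226 to 118842966, encodes the VPS35-like subunit of commander, which returns membrane proteins from endosomes to the surface. It had 54.3, 64.9, 94.2 and 114 CPM in mutants 1, 2, 3 and 4, against 29.6, 30.9 and 69.3 CPM in wild types 1, 2 and 3. Every library of the second series was above its genotype in the first, and mutants lay above wild types within each series. *Vps35l* passed the edgeR test with a log2 change of 0.82 (SE 0.13) and an adjusted p of 0.0055, with 0.98 (SE 0.13) in the first series and 0.59 (SE 0.22) in the second. It passed without each mouse in turn (adjusted p = 0.00418 to 0.033 by edgeR) but not in the second series alone (0.143), with no series term (0.443) or with sex in its place (0.848).

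*Vps29*, on chromosome 5 from 122354369 to 122364984, encodes a subunit that retromer and commander share. It had 77.2, 88.6, 73.3 and 85.2 CPM in mutants 1, 2, 3 and 4, against 107, 113 and 101 CPM in wild types 1, 2 and 3, so that no mutant reached a wild type. *Vps29* passed the edgeR test with a log2 change of −0.39 (SE 0.098) and an adjusted p of 0.0444, with −0.41 (SE 0.12) in the first series and −0.35 (SE 0.21) in the second. By edgeR, the adjusted p was 0.0678 to 0.17 with any 1 mouse left out other than mutant 4. The retromer core gene *Vps35* had 75.1 ± 20.2 CPM in mutant and 84.2 ± 9.03 CPM in wild-type Purkinje cells (−0.20, SE 0.19, adjusted p = 0.57 by edgeR). Of the 2 VPS26 genes, *Vps26b*, the one more abundant in brain, had 253 ± 34.3 CPM in mutant and 321 ± 37.7 CPM in wild-type Purkinje cells (−0.30, SE 0.096, adjusted p = 0.0978 by edgeR), and *Vps26a* had 14.1 ± 1.90 CPM in mutant and 15 ± 1.17 CPM in wild-type Purkinje cells (−0.096, SE 0.14). The sorting nexin genes *Snx1*, *Snx2* and *Snx27* had log2 fold changes between −0.09 and 0.079. The ESCRT-0 genes *Hgs* and *Stam*, which hold ubiquitinated cargo, had log2 fold changes of 0.056, SE 0.083 and −0.21, SE 0.13, and *Eea1*, the tether of early endosomes, 0.085, SE 0.16. None of these passed the test.

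Of 8 neuron-enriched paralogs 6 fell, and of 7 ubiquitous ones 0 passed the test, where 5.95% of all tested genes were lower. Of the 35 members placed in neither class, 3 were lower and 1 was higher. *Fcho1*, a paralog of *Fcho2*, was among these 3. The 8 genes set down as neuron-enriched from general knowledge (*Dnm1*, *Dnm3*, *Amph*, *Sh3gl2*, *Pacsin1*, *Sgip1*, *Necap1* and *Snap91*) had log2 fold changes with a median of −0.55. The 7 ubiquitous ones (*Dnm2*, *Bin1*, *Sh3gl1*, *Pacsin2*, *Fcho2*, *Necap2* and *Picalm*) had a median of −0.022. By edgeR 0 of them passed, and 2 (*Pacsin2* and *Dnm2*) had an unadjusted p under 0.05. DESeq2 called 7 of the 8 lower and 0 of the 7 in either direction, where over all genes it called 1257 lower and 791 higher. Within each series the mutants lay below the wild types in all 8 neuron-enriched genes and in 1 of the 7 ubiquitous ones (*Pacsin2*), against the 16.6% of all genes given above. The summed level of the 8 was 2143 to 2941 CPM in mutants and 3097 to 3725 CPM in wild types, without overlap, and that of the 7 was 339 to 486 CPM in mutants and 387 to 488 CPM in wild types. The split was made with earlier results of these data known, so no test of the 2 lists is given.

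By CPM per kilobase of gene model, a scale that allows genes to be compared, the neuron-enriched member was the higher one of most pairs in wild-type Purkinje cells. *Dnm1* had 226 and *Dnm2* 2.18 CPM per kb, *Sh3gl2* 117 and *Sh3gl1* 4.32, *Necap1* 75.8 and *Necap2* 2.75, and *Sgip1* 11.2 and *Fcho2* 0.288. *Amph* was the exception among these pairs, with 11.6 CPM per kb where *Bin1* had 19.97. For *Pacsin1* and *Pacsin2* the levels were 32.4 and 32.6 CPM per kb in mutants and 62 and 37.6 in wild types, so the means of the syndapins were closer in mutants. For *Snap91* and *Picalm* they were 13 and 7.83 in mutants and 20.4 and 7.35 in wild types.

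The log2 ratio of the counts of the neuron-enriched paralog to those of the ubiquitous one within a mouse does not depend on library size. It was lower in mutants, on average and with the series as a term, in all 8 pairs, of which 2 share *Dnm2*, and in the 3 further pairs with looser assignment (*Vps26b* and *Vps26a*, *Itsn1* and *Itsn2*, *Ehd3* and *Ehd1*). For *Pacsin1* to *Pacsin2* the ratio was 0.401 ± 0.139 in mutant and 1.13 ± 0.0369 in wild-type mice, a difference of −0.74 (SE 0.092). The mutants all lay below the wild types, whose ratios were nearly equal. For *Snap91* to *Picalm* it was −0.0869 ± 0.256 in mutant and 0.673 ± 0.206 in wild-type mice, a difference of −0.82 (SE 0.11), and for *Dnm1* to *Dnm2* 6.01 ± 0.100 in mutant and 6.66 ± 0.130 in wild-type mice, a difference of −0.67 (SE 0.073). In both pairs the genotypes did not overlap. For *Necap1* to *Necap2* the difference was −0.27 (SE 0.024), for *Dnm3* to *Dnm2* −0.86 (SE 0.20), and for *Ehd3* to *Ehd1* −0.99 (SE 0.27). Each of these 6 pairs gave p = 0.0556 in a two-sided exact permutation test within the series, which is the smallest p that its 18 arrangements allow, so this test cannot pass 0.05 for any pair (adjusted over the 11 pairs, 0.102).

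For *Amph* to *Bin1* the difference was −0.66 (SE 0.19) and for *Sh3gl2* to *Sh3gl1* −0.33 (SE 0.11), both with exact permutation p = 0.111. Across series the genotypes overlapped in both pairs, and within each series the mutants lay below the wild types. The differences were −0.50 (SE 0.29) for *Sgip1* to *Fcho2*, −0.19 (SE 0.11) for *Vps26b* to *Vps26a* and −0.17 (SE 0.12) for *Itsn1* to *Itsn2*, with exact permutation p of 0.167, 0.222 and 0.333. In these 3 pairs the genotypes overlapped, also within a series. Genotype labels were also permuted over all 7 mice, not kept within the series (35 arrangements), with the series still a term of the difference. *Pacsin1* to *Pacsin2* and *Snap91* to *Picalm* then had an exact permutation p of 0.0286, the smallest that test allows, and 0.157 adjusted over the pairs. Within the series the exact permutation p of the same pairs was the 0.0556 given above.

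**Figure D4:**
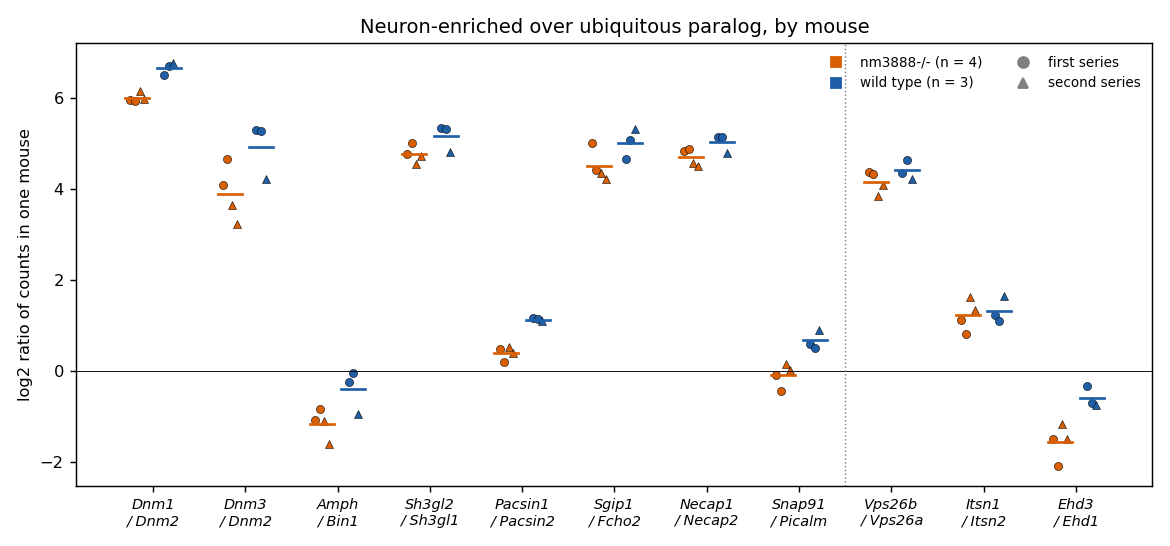
Log2 ratio of the counts of a neuron-enriched gene to those of its ubiquitous paralog in each mouse (y axis) for 8 pairs and, right of the dotted line, 3 pairs with looser assignment, with *nm3888*-/- in orange left of wild type in blue, circles for the first series, triangles for the second, and bars at the mean of each genotype. The orange mean is below the blue mean in all 11 pairs, and the points of *Pacsin1* and *Pacsin2*, *Snap91* and *Picalm*, *Dnm1* and *Dnm2*, and *Ehd3* and *Ehd1* do not overlap.

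Few other genes of the pathway passed the test. Of 137 further tested genes (uncoating enzymes, other adaptors and BAR-domain proteins, AP1, AP3, AP4 and GGA adaptors, sorting nexins, commander, WASH, ESCRT and endosome tethers), 3 were lower and 0 were higher by edgeR, or 2.19% lower, against the 5.95% of all genes given above. Their median log2 fold change was −0.05. *Inpp5f*, a phosphoinositide phosphatase of endosomes, had 56.7, 60.4, 54.3 and 48.8 CPM in mutants 1, 2, 3 and 4, against 90.2, 84.8 and 72 CPM in wild types 1, 2 and 3. *Ap3s2*, a subunit gene of the AP3 adaptor, had 122, 131, 95.1 and 103 CPM in mutants 1, 2, 3 and 4, against 162, 171 and 140.2 CPM in wild types 1, 2 and 3, and *Mvb12b*, a subunit gene of ESCRT-I, had 67.9, 59.8, 63.6 and 57.3 CPM in mutants 1, 2, 3 and 4, against 81, 78.8 and 84.1 CPM in wild types 1, 2 and 3. The genotypes did not overlap in any of the 3, and their log2 fold changes were −0.54, SE 0.089, −0.44, SE 0.086 and −0.39, SE 0.094. By edgeR none of 14 commander genes other than *Vps35l* and the shared *Vps29* passed. The log2 fold changes of these 14 lay between −0.38 and 0.44. None of 15 sorting nexins and 5 WASH complex genes passed either. DESeq2 called 7 of the 137 lower and 2 higher, among them the commander gene *Ccdc93* and the sorting nexin gene *Snx16*. Over all genes it called 1257 lower and 791 higher. Of the 137, 19 of negative and 5 of positive log2 fold change had an unadjusted p under 0.05 by edgeR. No share of all genes was taken at that threshold.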

How the data were processed

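Ribosome-bound RNA of 7 cerebella (4 *nm3888*-/-, 3 wild type) was sequenced as paired-end reads from a stranded kit. Per the file headers, the authors made the deposited whole-number counts per gene with featureCounts 2.0.1 and GENCODE M25 on mm10, from Bowtie2 alignments in the first series (2 mutants, 2 wild types) and STAR alignments in the second. Aligner and series cannot be told apart, and the part of either in counts on pseudogene copies was not tested. The methods state fewer mutant libraries than the 4 deposited. Total counts were 18023017 to 107937386 per library, and intervals cover the spread between these mice. Which library belonged to which batch was not given in the sources used here, so the series, read from the library names, stood for it.

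The counts were fitted in edgeR 4.0.16 (R 4.3.3) with TMM scaling, filterByExpr, a series term and Benjamini-Hochberg adjustment over 17621 genes, called at 0.05. DESeq2 1.42.0 was an alternative. Others were RLE scaling, no filter, no series term, sex or the replicate number in its place, each series alone, thinned counts and each mouse left out. Paralog ratios used log2 counts plus a prior of 0.5 and an exact two-sided permutation test over mice. Pseudogene copies were found with blastn 2.17.0. On simulated counts for 17237 genes in this design, 11 of 50 genes simulated with a 1.5-fold difference were recovered. At differences of 2-fold, 4-fold and 8-fold it was 43, 49 and 50 of 50. Of 167 calls, 14 were false. The genes given a difference were drawn from those with a log2 CPM above 2, so recovery at lower levels was not measured.

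Replicate numbers pair the samples by the rule that the correlation of deviations of same-numbered samples from their group means exceeds 0.1 in each of 3 pairs (0.914, 0.946 and 0.960), but the numbers coincide with the series. Within the first series the correlation was 0.0352. The 50 genes, the paralog classes, the further pathway genes and the marker lists were chosen with earlier results of these data known. The text names each called member with its values, both genes of 11 paralog pairs, and up to 4 called pathway genes per direction. *Cltb*, *Ap2a2*, *Hip1*, *Ehd4*, *Ccdc93* and *Snx16* were singled out after their values were seen.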

Additional observations from a re-analysis of the deposited data

Results flagged for a closer look

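Each member's 4 mutant values were examined for 1 that stood apart by Dixon's test, which flags about 1 in 20 such groups by chance, and 2 of the 50 members had one. *Pacsin1* had 191.6 CPM in mutant 2, below 216.4, 217.7 and 220.8 CPM in the other mutants, a gap that took up 0.848 of the range. That library lay farther from the wild types than the others, and the gene passed the test without it. *Epn2* had 36.9 CPM in mutant 3, above 22.7, 23.8 and 24.4 CPM in the other mutants, a gap of 0.879 of the range. *Epn2* did not pass the test with or without that library. The cause of either value was not tested.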

How the results depend on the processing

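The 9 lower and 1 higher members became 1 and 0 with no library series term, 1 and 0 with sex in its place, 1 and 0 in the second series alone, and 5 and 1 in the first series alone. With the replicate block in place of the series there were 3 and 1. Over all genes, where 1049 were lower and 455 higher, the lower and higher counts were 251 and 58 with no series term, 85 and 17 with sex, 571 and 241 with the replicate block, 488 and 191 in the first series alone, and 493 and 567 in the second series alone. The lower and higher counts were 1329 and 731 with no filter on low counts, and 1257 and 791 with DESeq2. The lower share of calls was 81.2% with no series term, 83.3% with sex and 46.5% in the second series alone. Leaving out 1 mouse in turn gave 2 to 7 lower members, 426 to 991 lower genes and 173 to 434 higher genes, with the fewest members without mutant 2 and the fewest genes without wild type 3. RLE scaling gave 7 lower members, thinned counts 6, and no filter and DESeq2 10 each, the 9 and *Dnm3*. All 11 paralog ratios were lower in mutants on average in each alternative run on them (each series alone, a prior of 2 counts, each mouse left out). Of 850 values of the 50 members under 17 alternatives, 76 lost a call, 2 gained one and 0 of the called changed sign. These causes were not tested.

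With 3 wild types, 1 of them in the second series, few 1.5-fold changes were recovered on simulated counts, and 9.0 of the 40 uncalled members have an interval that reaches such a change. Sex and genotype cannot be told apart in the second series.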
